A study of Mus musculus with 15 samples.

Results

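The genes described here were 10 genes of the neuromuscular junction, the contact at which a motor nerve drives a muscle fiber. They were the 5 subunits of the muscle acetylcholine receptor (Chrna1, Chrnb1, Chrnd, Chrne and Chrng), 4 genes of the machinery that gathers the receptor under the nerve ending (Musk, Dok7, Rapsn and Lrp4) and the adhesion molecule Ncam1. They were chosen by name, with earlier results of these data known, and are 10 of the 56980 genes for which RNA-seq values were deposited. The values were TPM, a length-scaled transcript abundance. They account for transcript length and sum to the same total in every library, so levels of different genes can be compared but the depth of a library is unknown. The study treated DBA/2-mdx mice (genotype DBA/2J-mdx), which lack dystrophin and develop a severe muscular dystrophy, with D + Q, the senolytic pair of dasatinib (a tyrosine kinase inhibitor) and quercetin (a plant flavonoid), or with vehicle, both by oral gavage 2 times per week. The tibialis anterior (TA) muscle came from 4 D + Q–treated and 4 vehicle-treated mice, treated for 2 months from an age of 3 months and collected at 5 months. The heart came from 3 D + Q–treated and 4 vehicle-treated mice, treated for 4 months from an age of 12 months and collected at 16 months. All 15 libraries therefore came from dystrophic mice, and tissue, age and length of treatment changed together. All 4 D + Q–treated TA mice were male, whereas of the vehicle TA mice replicates 1 and 3 were male and replicates 2 and 4 female, so in TA treatment was partly confounded with sex. The hearts were labelled as 2 females and 1 male with D + Q and 2 of each sex with vehicle, and in 1 heart library sex-linked genes went against the label. Each sample is taken here as 1 mouse. The labels number the samples without saying so, and p-values measure only the spread between these samples.

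At the junction, acetylcholine released by the nerve opens a receptor of 5 subunits in the muscle membrane. Fetal and denervated muscle builds it with the gamma subunit, encoded by Chrng, and innervated adult muscle replaces this with the epsilon subunit, encoded by Chrne. Agrin from the nerve binds LRP4, which activates the receptor tyrosine kinase MuSK, and the adaptor DOK7 and the scaffold protein rapsyn then cluster the acetylcholine receptors. Subunit genes are transcribed mainly in the nuclei below the nerve ending, and dystrophic or regenerating fibers can also express them away from the junction. Cardiac muscle has no neuromuscular junction and was used as the reference tissue.

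In TA 21830 to 24393 genes were above 0 TPM per library, and in heart 22579 to 22818 with D + Q and 24089 to 25378 with vehicle, and log2(TPM + 0.5) values of mice in a group correlated at 0.977 to 0.991 across genes. The tissue labels fitted the markers. The 9 genes of adult fast fibers summed to 44900 to 58500 TPM in TA and 1330 to 1780 TPM in heart, and the 7 cardiomyocyte genes summed to 74.8 to 190 TPM in TA and 22900 to 30400 TPM in heart. Atrial marker genes summed to 864 to 4260 TPM in vehicle hearts and 382 to 427 TPM in D + Q hearts, so the heart groups differed in atrial transcripts.

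The regulatory sequence in front of these genes is shown because the receptor genes are a textbook case of control by 2 short motifs. The E-box, CANNTG, is bound by myogenic factors such as MyoD and myogenin, and the N-box, CCGGAA, is bound by Ets factors such as GABP and marks genes transcribed under the nerve. RefSeq windows from 250 bases before to 50 bases after the transcription start (build GRCm38.p6) matched 6 of the 10 genes, namely Chrna1, Chrnb1, Chrne, Chrng, Musk and Dok7, and did not match Chrnd, Rapsn, Lrp4 and Ncam1. The windows of 4 subunit genes and of Musk are printed 5′ to 3′ on the strand of the gene, with every E-box and N-box in capitals, both strands searched. The windows lie at chr2:73580289-73580588 (minus strand) for Chrna1, chr11:69795888-69796187 (minus) for Chrnb1, chr11:70619145-70619444 (minus) for Chrne, chr1:87205561-87205860 (plus) for Chrng and chr4:58285712-58286011 (plus) for Musk.
Chrna1: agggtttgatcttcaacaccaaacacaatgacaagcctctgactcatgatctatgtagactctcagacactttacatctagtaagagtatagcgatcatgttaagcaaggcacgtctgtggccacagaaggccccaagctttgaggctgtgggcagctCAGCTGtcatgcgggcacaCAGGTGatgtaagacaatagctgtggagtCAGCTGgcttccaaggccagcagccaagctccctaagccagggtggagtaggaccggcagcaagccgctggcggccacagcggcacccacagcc
Chrnb1: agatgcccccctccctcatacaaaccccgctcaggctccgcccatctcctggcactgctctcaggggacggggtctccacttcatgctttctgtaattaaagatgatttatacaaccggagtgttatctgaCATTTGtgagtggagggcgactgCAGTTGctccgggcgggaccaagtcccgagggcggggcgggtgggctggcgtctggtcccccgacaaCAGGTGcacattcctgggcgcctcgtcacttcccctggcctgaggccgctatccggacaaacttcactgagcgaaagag
Chrne: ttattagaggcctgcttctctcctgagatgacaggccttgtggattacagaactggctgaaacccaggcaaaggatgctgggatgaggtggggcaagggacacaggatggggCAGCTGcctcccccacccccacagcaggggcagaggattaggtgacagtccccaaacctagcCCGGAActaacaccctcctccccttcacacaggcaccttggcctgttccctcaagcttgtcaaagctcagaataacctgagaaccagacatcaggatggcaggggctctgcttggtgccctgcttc
Chrng: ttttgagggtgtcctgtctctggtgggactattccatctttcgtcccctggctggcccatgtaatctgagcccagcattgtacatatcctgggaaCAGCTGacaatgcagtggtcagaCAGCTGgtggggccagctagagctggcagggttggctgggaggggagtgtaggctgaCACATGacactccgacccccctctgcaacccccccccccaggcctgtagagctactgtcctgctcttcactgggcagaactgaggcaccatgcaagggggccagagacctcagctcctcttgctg
Musk: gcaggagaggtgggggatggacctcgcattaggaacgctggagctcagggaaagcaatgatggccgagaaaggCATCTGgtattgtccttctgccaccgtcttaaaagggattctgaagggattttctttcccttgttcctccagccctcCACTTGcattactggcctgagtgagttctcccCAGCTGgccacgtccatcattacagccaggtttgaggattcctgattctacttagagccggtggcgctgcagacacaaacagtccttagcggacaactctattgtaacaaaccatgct
The windows of Chrna1, Chrnb1, Chrng and Musk each held 3 E-boxes, a count reached by 17.6% of the 32841 RefSeq windows of this length. The window of Chrne, the adult subunit gene, held 1 E-box and was the only one of the 6 genes' windows with an N-box, which began 76 bases before the start and reads CCGGAA on the strand of the gene. An N-box occurred in 14.9% of all windows and at least 1 E-box in 72.3%, so neither motif alone is rare. Of the 2 windows of Dok7, 1 held a single E-box and the other held none. A match in these letters is a description of the sequence and was not tested as a binding site.

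**Figure D1:**
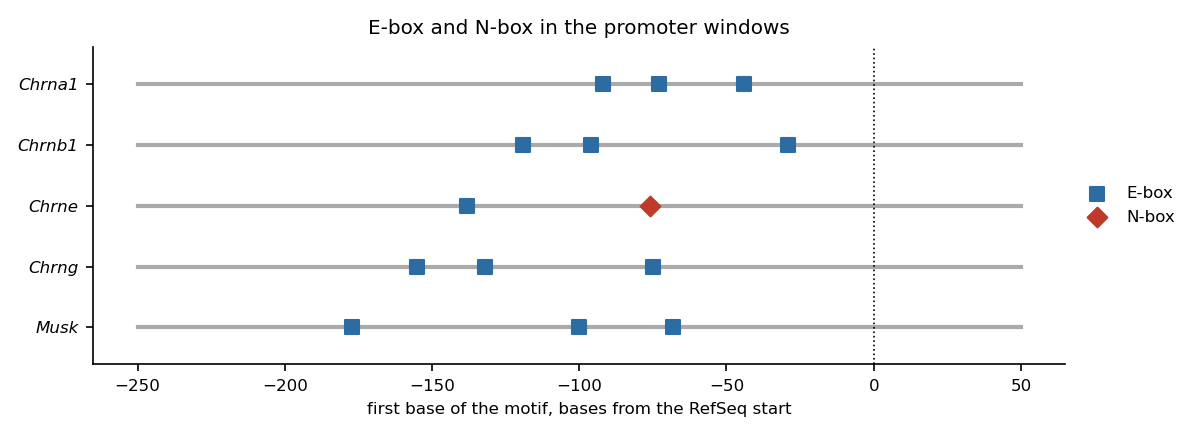
Position of E-boxes (squares) and N-boxes (diamonds) in 5 RefSeq promoter windows, as bases from the transcription start (dotted line, negative is upstream). Chrna1, Chrnb1, Chrng and Musk each carry 3 E-boxes within 177 bases of the start, and Chrne carries 1 E-box and the N-box.

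D + Q treatment was first compared with vehicle in TA, the tissue that holds the junctions. None of the 10 genes passed the DEG criteria in TA, an adjusted p-value under 0.05 with an absolute log2 fold change above 0.5 in limma with 1 surrogate variable. Of all 16298 genes tested, 0 (0%) passed. The study applied these thresholds to counts in DESeq2, a count-based test, and reported DEGs in TA and in heart. The 0 applies to this fit of limma on TPM and does not show that TA was unchanged. The count test was not run here, and the source of the difference from the study was not tested. At an unadjusted p under 0.05 there were 488 genes (2.99%), and 2 of the 10 junction genes were among them, Musk and Dok7, both with higher values under D + Q. The 2.99% is below the share that this cutoff gives when no gene differs. The 488 became 262 without D + Q replicate 3, 1188 without vehicle replicate 3 and 168 with labelled sex in place of the surrogate variable. The median log2 fold change of the 10 genes was -0.08, close to the -0.07 of all genes tested. In bulk muscle, fewer cells or nuclei of a type and less RNA from each cannot be told apart.

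**Figure D2:**
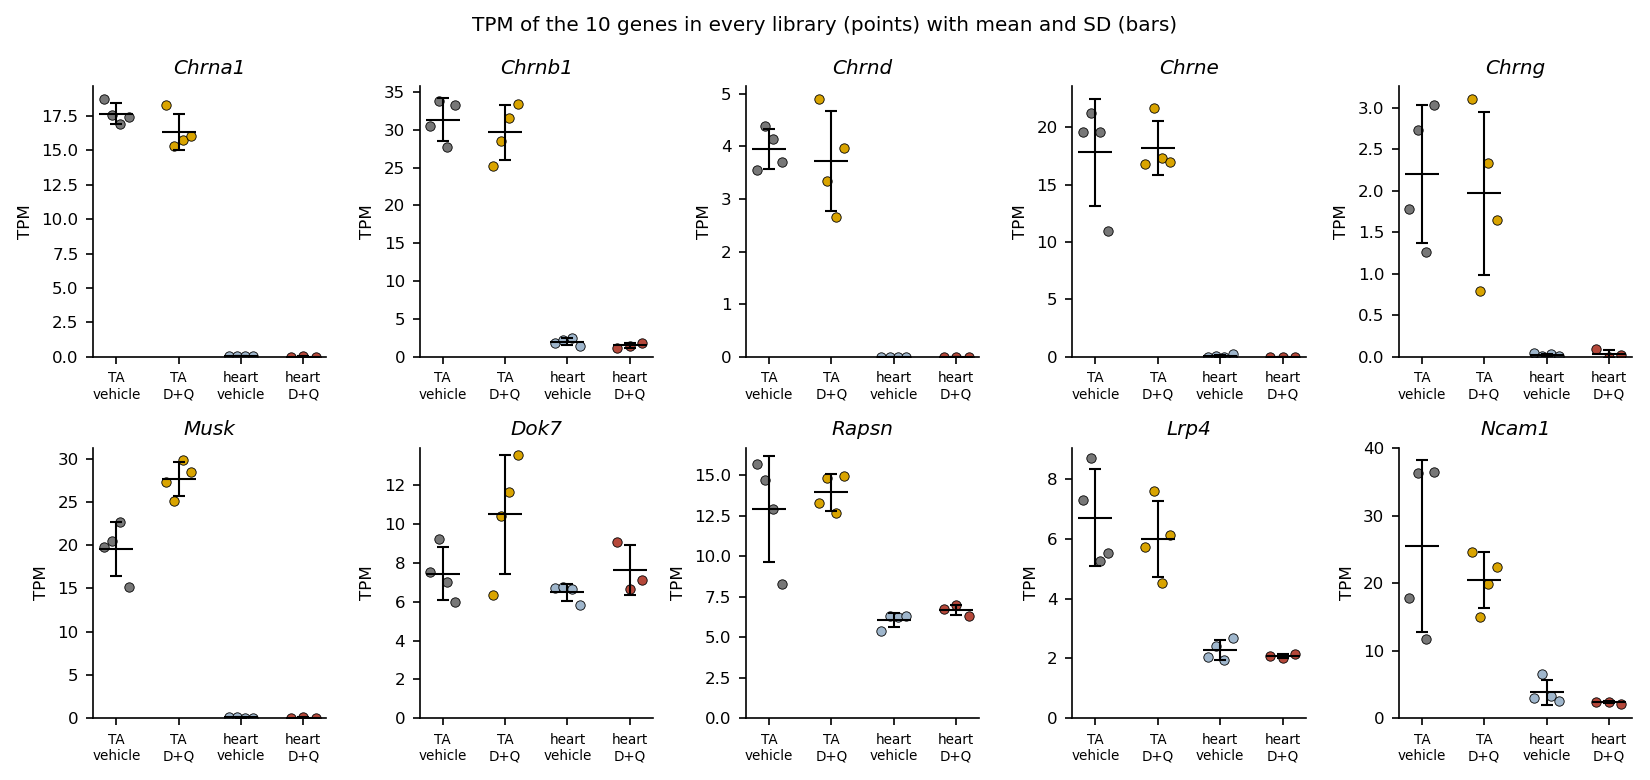
TPM (linear axes from 0) of each gene in every library, as points, with the mean and SD of each group as bars, for TA and heart with vehicle or D + Q. Musk is the only gene whose D + Q and vehicle TA mice do not overlap, and Chrna1, Chrnd, Chrne, Chrng and Musk lie close to 0 in every heart.

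The receptor subunits were read from the ligand-binding side. Chrna1 (chr2:73393557-73410835 in GRCm39, minus strand, 9 exons in the canonical transcript) encodes the alpha subunit that carries the acetylcholine site. Its level was 18.27, 15.31, 15.76 and 16.06 TPM in the 4 D + Q–treated mice and 18.74, 17.56, 16.95 and 17.45 TPM in the 4 vehicle-treated mice. Of the D + Q mice, 3 lay below every vehicle mouse and the fourth was the second highest of all 8, so the groups overlapped. The log2 fold change was -0.14 (SE 0.13, 95% interval -0.41 to 0.14, limma adjusted p = 0.999). On the log2 scale Chrna1 was also the subunit gene that varied least between vehicle mice, at 17.7 ± 0.759 TPM (SD, n = 4).

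Chrnb1 (chr11:69674860-69686773, minus strand, 11 exons), the beta subunit, had the highest mean of the 10 genes in both TA groups. It measured 25.16, 28.54, 31.56 and 33.45 TPM with D + Q and 30.49, 33.82, 27.68 and 33.21 TPM with vehicle, and the ranges overlapped almost completely. Chrnd (chr1:87118306-87127795, plus strand, 12 exons), the delta subunit, was much lower, at 4.9, 3.34, 2.66 and 3.97 TPM with D + Q and 3.55, 4.38, 4.14 and 3.71 TPM with vehicle. Its highest and its 2 lowest values were all in D + Q mice. The log2 fold changes were -0.03 (SE 0.13) for Chrnb1 and -0.20 (SE 0.17) for Chrnd, with intervals that spanned 0 and limma adjusted p = 0.999 for both.

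The fetal and the adult subunit are encoded by Chrng (chr1:87132379-87140416, plus strand, 12 exons), the next gene after Chrnd on the chromosome, and Chrne (chr11:70505707-70510125, minus strand, 12 exons). Chrng was 3.11, 0.798, 2.33 and 1.65 TPM with D + Q and 1.78, 2.74, 1.26 and 3.03 TPM with vehicle. The lowest and the highest mouse were both D + Q–treated, and the log2 fold change was -0.19 (SE 0.35, 95% interval -0.97 to 0.60). Chrne was 16.78, 21.69, 17.34 and 16.93 TPM with D + Q and 19.57, 21.2, 19.54 and 10.94 TPM with vehicle. Vehicle replicate 4 stood far below the other 7 mice, and without it the log2 fold change went from 0.05 (SE 0.22) to -0.13 (limma unadjusted p = 0.342). Leaving out D + Q replicate 2, the highest in Chrne and the lowest in Chrng, turned both directions, to -0.07 for Chrne and 0.17 for Chrng. Neither subunit therefore kept 1 direction when single mice were left out.

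Chrne exceeded Chrng in all 8 TA mice, by 3.61 to 27.2 times. The share of Chrng in the sum of both was 15.6%, 3.55%, 11.9% and 8.86% in D + Q–treated mice (mean 9.98 ± 5.10, SD, n = 4) and 8.34%, 11.4%, 6.05% and 21.7% in vehicle-treated mice (mean 11.9 ± 6.91, SD, n = 4). The ranges overlapped, with the highest share in a vehicle mouse and the lowest in a D + Q mouse. The 3 mice with the highest shares were also the 3 with the most Myh3, the embryonic myosin of regenerating fibers, at 24.9 TPM (D + Q replicate 1), 28.1 TPM (D + Q replicate 3) and 42.9 TPM (vehicle replicate 4). Myh3 was between 4.42 and 10.2 TPM in the other 5 mice. The match is narrow, as vehicle replicate 2 had a share of 11.4%, close to the 11.9% of D + Q replicate 3, with 9.06 TPM of Myh3. Myh3 was also named after its values had been seen. Cdh15, a satellite cell marker, did not follow, at 7.04, 6.02 and 5.85 TPM in these 3 mice and 5.33 to 7.77 TPM in the other 5. The part of regenerating fibers in the Chrng share was not tested. The sum of the 5 subunits varied little, from 68.2 to 72.1 TPM with D + Q and from 68.3 to 79.7 TPM with vehicle.

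**Figure D3:**
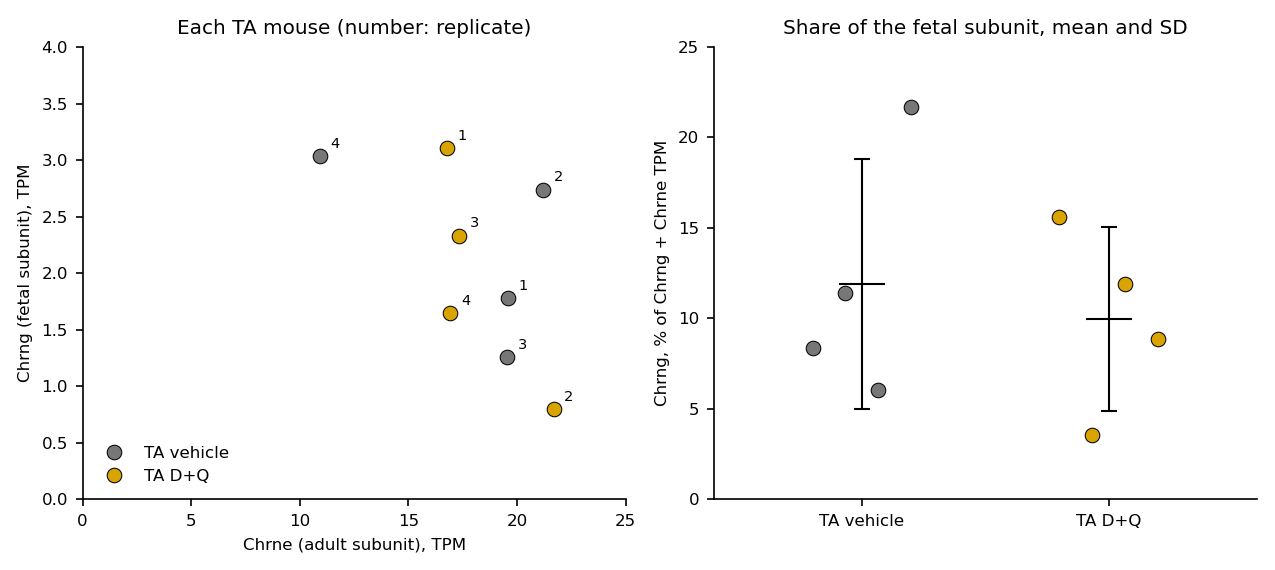
Left, TPM of Chrng, the fetal subunit, against Chrne, the adult subunit, in each TA mouse (number, replicate). Right, Chrng as a percentage of Chrng plus Chrne TPM in each mouse with group mean and SD. Vehicle replicate 4 has the lowest Chrne and the highest share, 21.7%, and D + Q replicate 2 the lowest share, 3.55%.

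Musk (chr4:58285931-58377847, plus strand, 14 exons) encodes MuSK, the kinase at the center of the pathway. It was 27.27, 25.12, 29.8 and 28.44 TPM in D + Q–treated mice and 19.76, 20.5, 22.68 and 15.22 TPM in vehicle-treated mice. Every D + Q mouse was above every vehicle mouse. The mean was 27.7 ± 1.98 TPM with D + Q and 19.5 ± 3.14 TPM with vehicle (SD, n = 4 each), and the fitted ratio was 1.39 (95% interval 1.11 to 1.75, log2 fold change 0.48, SE 0.15). The unadjusted p in limma was 0.00937 and the adjusted p was 0.999. A 2-sided exact permutation test of this gene gave 0.0286, the smallest value that 4 against 4 mice allow. That value follows from the groups not overlapping and is no second support. It is not corrected for the 10 genes and takes no account of sex. Of all genes tested, 0.264% were higher in every D + Q mouse and 1.25% were lower in every D + Q mouse, and of the 10 genes Musk was the 1 that did not overlap.

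The Musk difference was also read within sex, since no D + Q–treated TA mouse was female. The male vehicle mice had 19.76 and 22.68 TPM, below all 4 male D + Q mice. With labelled sex in place of the surrogate variable the log2 fold change was 0.38 (limma unadjusted p = 0.0546, adjusted p = 1). The fit over the 6 males, added after seeing the data, gave the same value (limma unadjusted p = 0.0222, adjusted p = 1). This match was fixed by the design, as every D + Q–treated TA mouse was male, and is no second support. Vehicle replicate 4 had the lowest Musk, and without it the change was 0.39 (unadjusted p = 0.00994). Leaving out D + Q replicate 3, the highest, gave the lowest value, 0.35 (unadjusted p = 0.0911). The difference in Musk thus kept its sign without any 1 mouse, and did not pass correction over all genes in any of these fits.

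Dok7 (chr5:35213886-35246018, plus strand, 7 exons) encodes the adaptor that binds and activates MuSK inside the fiber. It was 6.33, 10.42, 11.64 and 13.54 TPM with D + Q and 7.54, 9.23, 7.01 and 5.96 TPM with vehicle. In the D + Q group 3 mice were above every vehicle mouse, and replicate 1 was below 3 of the 4 vehicle mice. The log2 fold change was 0.52 (SE 0.22, 95% interval 0.04 to 1.01, limma unadjusted p = 0.0372, adjusted p = 0.999), and the exact permutation p was 0.143. It was 0.44 (unadjusted p = 0.0867) without a covariate and 0.45 (unadjusted p = 0.153) in males only. Leaving out single mice gave values from 0.39 (limma unadjusted p = 0.0897, without D + Q replicate 4) to 0.65 (limma unadjusted p = 0.00292, without D + Q replicate 1). Without vehicle replicate 4, which had the lowest Dok7 of all TA mice, the change was 0.41 (limma unadjusted p = 0.0665).

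Rapsn (chr2:90865892-90876082, plus strand, 8 exons) encodes rapsyn, which links the receptors to each other below the membrane. It was 13.3, 14.84, 12.64 and 14.95 TPM with D + Q and 15.66, 14.72, 12.88 and 8.29 TPM with vehicle. Again vehicle replicate 4 was far the lowest. The log2 fold change of 0.11 (SE 0.20) became -0.04 without that mouse, both far from the limma threshold.

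Lrp4 (chr2:91287797-91344248, plus strand, 38 exons), the agrin receptor, was 5.73, 7.59, 4.51 and 6.12 TPM with D + Q and 7.29, 8.71, 5.25 and 5.54 TPM with vehicle. The groups overlapped, and the log2 fold change was -0.14 (SE 0.22, 95% interval -0.63 to 0.35). In the main fit Musk, Dok7 and Rapsn were thus positive and Lrp4 negative. Neither Rapsn nor Lrp4 kept its sign when single mice were left out, and Lrp4 was 0.16 without D + Q replicate 3. A direction shared by the 4 clustering genes was therefore neither shown nor excluded.

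Ncam1 (chr9:49413436-49710357, minus strand, 18 exons) encodes an adhesion molecule that is concentrated at the junction and spreads over denervated and regenerating fibers. It was 24.7, 15.07, 19.85 and 22.47 TPM with D + Q and 17.84, 36.28, 11.7 and 36.48 TPM with vehicle. The 2 highest mice were the female vehicle mice, and the male vehicle mice, at 17.84 and 11.7 TPM, lay within or below the D + Q range. The fitted log2 fold change was -0.13 (SE 0.35) and turned to 0.47 when labelled sex replaced the surrogate variable (limma unadjusted p = 0.0747) and in males only (unadjusted p = 0.0929). Both fits must give the same value, since no D + Q–treated TA mouse was female. With 2 mice of each sex in 1 group, a sex difference in Ncam1 was not tested.

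**Figure D4:**
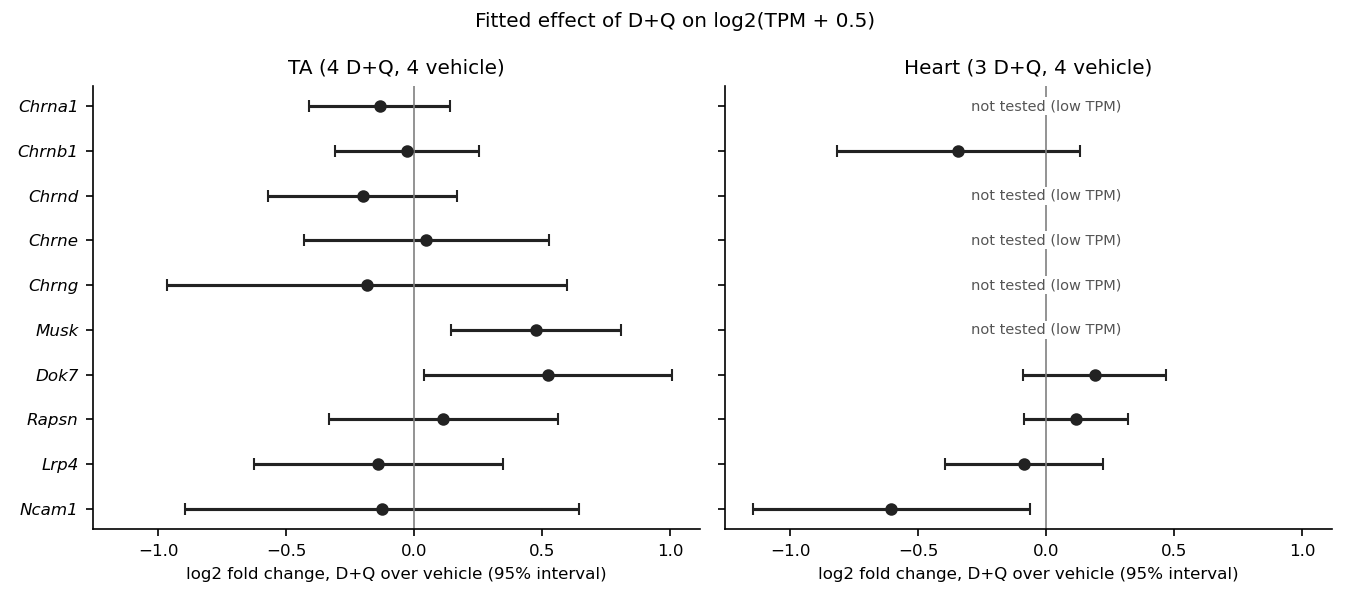
Log2 fold change of D + Q over vehicle with its 95% interval from limma, in TA (left) and heart (right), with a line at 0. Musk (0.48) and Dok7 (0.52) are the 2 genes whose TA interval lies above 0, and Ncam1 (-0.61) is the 1 gene whose heart interval lies below 0, before correction over all genes.

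Other genes of the junction were read from lists. Of 10 genes of the synaptic cleft and basal lamina, all were tested in TA and none passed, with 2 positive and 8 negative fold changes and a median of -0.14. The smallest p-values belonged to Lama4, a laminin chain of the synaptic basal lamina (log2 fold change -0.41, limma unadjusted p = 0.0377, adjusted p = 0.999), and Nid2, a nidogen (-0.37, limma unadjusted p = 0.168). Ache, the acetylcholinesterase of the cleft, measured 32.3 ± 3.70 TPM with D + Q and 33.2 ± 8.52 TPM with vehicle (SD, n = 4 each). Agrn, the agrin gene, measured 4.58 ± 0.511 and 5.24 ± 1.21 TPM (SD, n = 4 each), from whichever cells of the tissue transcribe it. None of 15 genes of the postsynaptic scaffold passed either, with a median of -0.03, and the smallest p-values belonged to Cttn, which encodes the actin regulator cortactin (-0.28, limma unadjusted p = 0.162), and Utrn, which encodes utrophin, the dystrophin homolog of the junction (-0.24, limma unadjusted p = 0.165). Of 7 neuregulin receptor and Ets factor genes 5 were tested and none passed. The smallest p-values there belonged to the receptor Erbb2 (-0.39, limma unadjusted p = 0.0875), whose D + Q mice lay below every vehicle mouse, and the Ets factor Etv5 (-0.27, limma unadjusted p = 0.353). For Erbb2 the D + Q maximum (2.289 TPM) and the vehicle minimum (2.325 TPM) nearly met. Of all genes tested, 1.25% lay lower in every D + Q TA mouse. The adjusted p was 0.999 for each of these 6 genes.

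Markers of denervation and of other cells were read beside these values in TA. Of 13 genes known to respond to loss of nerve activity, 10 were tested and none passed, and Hdac9 and Fbxo32 had the smallest p-values (log2 fold changes -0.99 and -0.37, limma unadjusted p = 0.0579 and 0.0727). Myog, the myogenic factor that rises after denervation, was 22.5 ± 3.76 TPM with D + Q and 23.4 ± 3.94 TPM with vehicle (SD, n = 4 each). The 8 satellite cell and regenerating fiber genes summed to 103 to 166 TPM with D + Q and 110 to 159 TPM with vehicle, and none of the 8 passed. The 10 Schwann cell and nerve genes summed to 47.1 to 103 and 47.2 to 88.5 TPM, and none of the 8 tested passed. None of 5 fibroblast genes passed, although all 5 fold changes were negative (median -0.33, smallest limma p 0.0302 unadjusted, for Lum), and none of the 5 leukocyte genes tested did. The 9 fast fiber and 7 cardiomyocyte genes gave no DEG of the 9 and 5 tested, with the smallest p-values for Myl3, a myosin light chain of heart and slow fibers (log2 fold change -1.57, limma unadjusted p = 0.00416, adjusted p = 0.999), and Myh2, the myosin of fast oxidative fibers (-0.90, limma unadjusted p = 0.0405, adjusted p = 0.999). Myl3 was 5.64 to 24.3 TPM with D + Q and 18.6 to 69.1 TPM with vehicle. The part of fiber type in the Musk difference was not tested. Vehicle replicate 4, the mouse with the lowest Chrne, Musk, Dok7 and Rapsn, also had the lowest Ache (22.2 TPM) and Scn4a, the muscle sodium channel (92.4 TPM), of the 8. The part of that mouse's tissue makeup in these values was not tested.

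The hearts were compared in the same way. Only 5 of the 10 genes reached the filter of 0.5 TPM in 3 heart libraries, Chrnb1, Dok7, Rapsn, Lrp4 and Ncam1, and none of them passed the DEG criteria, while 0.316% of 16132 genes (51) did. That background moved with single libraries, from 0 genes without vehicle replicate 2 to 136 without vehicle replicate 3. Ncam1 was 2.47, 2.46 and 2.18 TPM with D + Q and 3.08, 6.58, 3.34 and 2.50 TPM with vehicle. Each D + Q heart was below each vehicle heart, but the gap to vehicle replicate 4 was small. The log2 fold change was -0.61 (SE 0.23, limma unadjusted p = 0.0328, adjusted p = 0.239, exact permutation p = 0.0571, the smallest that 3 against 4 allow), and it was -0.33 without vehicle replicate 2. In heart 17.6% of all genes tested had an unadjusted p under 0.05, and 5.57% lay lower in every D + Q mouse, so 1 of 5 genes was not far from the background. Schwann cell and nerve genes summed to 31.2 to 36.1 TPM in D + Q hearts and 38.8 to 49.2 TPM in vehicle hearts, and their part in the Ncam1 difference, like that of atrial transcripts, was not tested.

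Rapsn in heart was 6.75, 6.98 and 6.33 TPM with D + Q and 5.41, 6.30, 6.25 and 6.28 TPM with vehicle. These groups did not overlap, but the D + Q minimum and the vehicle maximum nearly met, and 9.63% of all genes tested were higher in every D + Q heart. The log2 fold change was 0.12 (SE 0.09, limma adjusted p = 0.530). Dok7 (0.19), Lrp4 (-0.09) and Chrnb1 (-0.34) had overlapping groups and limma adjusted p-values of 0.451, 0.777 and 0.425. Chrnb1 ranged from -0.19 (without D + Q replicate 1) to -0.67 (without D + Q replicate 3) and Dok7 from 0.08 (without D + Q replicate 1) to 0.29 (without D + Q replicate 2). With sex read from expression in place of the label, Chrnb1 was -0.53 (limma adjusted p = 0.316), Ncam1 -0.86 (0.242), Dok7 0.16 (0.681), Rapsn 0.08 (0.794) and Lrp4 -0.05 (0.919).

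None of the 10 cleft, 15 postsynaptic and 7 neuregulin receptor and Ets factor genes was a DEG in heart. Among them were Colq, the collagen tail of acetylcholinesterase (log2 fold change 0.45, limma adjusted p = 0.196), Prkar1a, a regulatory subunit of protein kinase A (0.24, limma adjusted p = 0.117), and the neuregulin receptor Erbb4 (-0.41, limma adjusted p = 0.132). Of the 9 denervation genes tested, Sln, which encodes sarcolipin, was lower with D + Q (-5.46, limma adjusted p = 0.00997), and it is also an atrial marker.

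The level of the genes in TA was then set against heart, once in vehicle-treated and once in D + Q–treated mice, which are different animals. Of the 10 genes, 9 were DEGs with higher values in TA in vehicle-treated mice, where 22.6% of 17868 genes were, and 9 in D + Q–treated mice, where 21.4% were. These were the same 9 genes in both, and the exception was Dok7. Chrna1, Chrnd, Chrne, Chrng and Musk entered this test through their TA values alone, so their difference was bound to be found. Rescaling by median-of-ratios factors moved the median log2 difference of all genes from 0.16 to about 0 in vehicle-treated mice and from 0.09 to about 0 in D + Q–treated mice, and the 9 genes passed under it too.

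**Figure D5:**
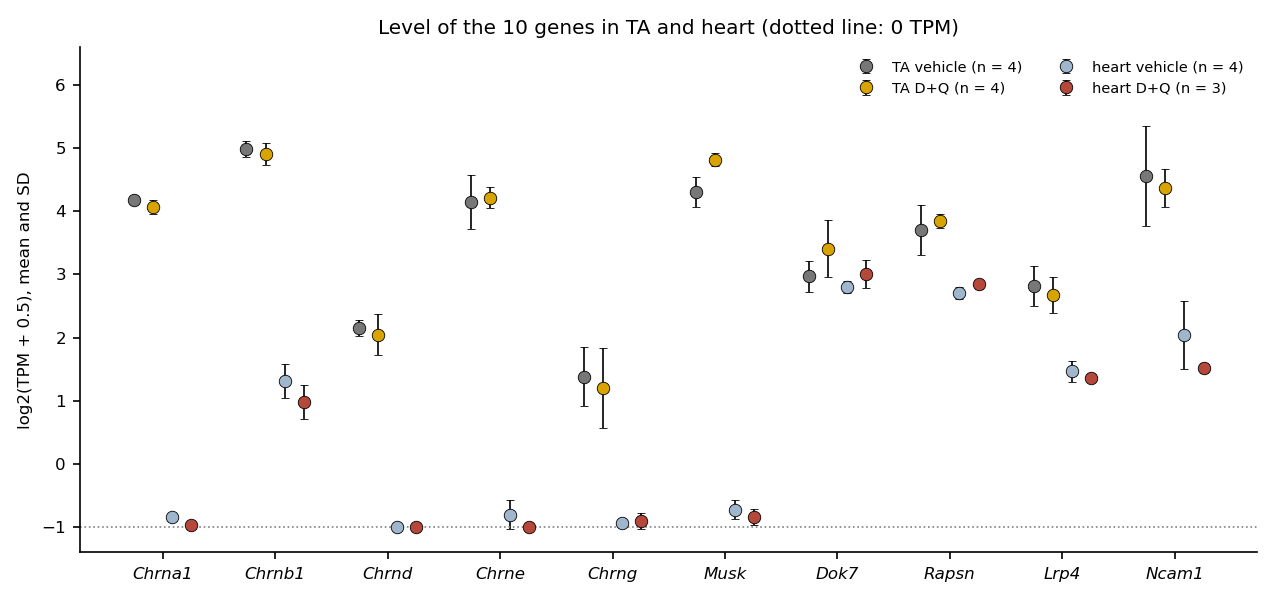
Mean and SD of log2(TPM + 0.5) of each gene in the 4 groups, with 0 TPM at the dotted line. The Dok7 means differ least between TA and heart, Rapsn and Lrp4 are moderately higher in TA, and Chrna1, Chrnd, Chrne, Chrng and Musk sit near the dotted line in heart.

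The 10 genes fell into 3 patterns in heart. Chrnd was listed at 0 in all 7 hearts and Chrne in 4 of them, with 0.0149, 0.0914 and 0.215 TPM in the other 3, all vehicle-treated, the group in which more genes were above 0. Chrna1 was at most 0.0799 TPM, Chrng at most 0.0903 TPM and Musk at most 0.180 TPM in any heart, against at least 15.3, 0.798 and 15.2 TPM in any TA. Heart D + Q replicate 2 carried traces of fast fiber genes, with 21.5 TPM of Tnnt3 against at least 7393 TPM in TA, and its Chrna1, 0.0236 TPM, was the highest of the 3 D + Q hearts. All 4 vehicle hearts had more Chrna1, at 0.0473 to 0.0799 TPM, with at most 0.882 TPM of Tnnt3. The part of fast fiber traces in Chrna1 was not tested.

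Chrnb1, Ncam1 and Lrp4 were low but measured in every heart. Chrnb1, the only receptor subunit of which this was true, was 1.13 to 2.54 TPM over the 7 hearts, and TA exceeded heart by 3.68 (SE 0.15) on the log2 scale with vehicle and 3.93 (SE 0.16) with D + Q. Ncam1 was higher in TA by 2.51 (SE 0.33) and 2.85 (SE 0.36), and Lrp4, at 1.96 to 2.67 TPM in heart, by 1.36 (SE 0.17) and 1.31 (SE 0.19). The largest limma adjusted p of these 6 values was 3.79e-05, and fold changes on this scale understate those of low genes.

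Rapsn and Dok7 were the most abundant of the 10 genes in heart. Rapsn was 5.41 to 6.98 TPM in heart and 0.99 (SE 0.16) and 1.00 (SE 0.17) higher in TA on the log2 scale, with limma adjusted p = 9.05e-05 and 0.000185. Dok7 was 5.84 to 9.08 TPM in heart and 5.96 to 13.54 TPM in TA. Its log2 difference was 0.17 with vehicle (95% interval -0.24 to 0.58, adjusted p = 0.507) and 0.40 with D + Q (-0.04 to 0.84, adjusted p = 0.138), and the second became 0.61 (adjusted p = 0.0076) without TA D + Q replicate 1. A tissue difference in Dok7 was thus not established, nor was an equal level shown.

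Within TA the order of levels was similar in both groups. With vehicle it ran from Chrnb1 (31.3 TPM) over Ncam1 (25.6), Musk (19.5), Chrne (17.8), Chrna1 (17.7), Rapsn (12.9), Dok7 (7.43), Lrp4 (6.70) and Chrnd (3.94) to Chrng (2.20), as mean TPM. Only between Chrna1 and Rapsn, Lrp4 and Chrnd, and Chrnd and Chrng did the ranges of neighbors not overlap. With D + Q, Musk (27.7 TPM) stood second and apart from Ncam1 (20.5 TPM), which came next.

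The difference of the D + Q effect between TA and heart was tested for all 10 genes in a model of the 4 groups. None passed, while 0.0616% of 17868 genes did, and 1 of the 10 had an unadjusted p under 0.05 where 5.56% of all genes had. That gene was Musk, whose effect was 0.62 higher in TA (SE 0.20, 95% interval 0.19 to 1.04, limma unadjusted p = 0.00754, adjusted p = 0.67). Chrna1, Chrnd, Chrne, Chrng and Musk passed the filter through TA alone. For them this test holds little beyond the TA change and heart values near the floor. Chrnd was at 0 TPM in every heart, so its difference (-0.10, SE 0.23) holds no heart change. Musk was at most 0.180 TPM in heart. Its mean log2(TPM + 0.5) was 4.81 with D + Q and 4.31 with vehicle in TA, and -0.84 and -0.72 in heart, so values near the floor add to the difference, which was 0.88 with a pseudocount of 0.1 (limma adjusted p = 0.857).

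Other junction genes differed between the tissues in both directions. In vehicle-treated mice TA was higher in 3 and lower in 3 of the 10 cleft and basal lamina genes (median log2 difference -0.11), where 22.6% of all genes tested were higher and 14.1% lower, led by Ache (3.40 on the log2 scale) and Col13a1 (0.83), a transmembrane collagen of the junction, on the higher side and by Bche (-1.04), which encodes butyrylcholinesterase, and Agrn (-0.86) on the lower side. Of the 15 postsynaptic genes 6 were higher and 1 lower, among them Scn4a (3.73), Gfpt1 (1.16) and Dtna (1.02), which encodes dystrobrevin. In D + Q–treated mice the counts were 2 higher and 3 lower of the cleft genes and 5 higher and 2 lower of the postsynaptic genes, against 21.4% higher and 15.9% lower of all genes tested. Agrn was more abundant in heart, at 7.81 to 10.6 TPM over the 7 hearts against 3.94 to 6.96 TPM in TA, while its receptor Lrp4 and the kinase Musk were higher in TA. Gene values of bulk tissue do not separate the cells or isoforms behind Agrn, so they are not a level of nerve agrin. In the comparison of vehicle-treated mice, all limma adjusted p-values of the genes named here were at most 0.000311.

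Some of these genes overlap others on the opposite or the same strand in the annotation. The overlapping genes with values were low, at most 0.291 TPM for Gm13778 at Rapsn, 1.76 TPM for Gm57029 and 0.0809 TPM for Gm11149 at Ncam1, and 0 TPM for 4930544D05Rik at Chrne.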

How the data were processed

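Bulk RNA-seq of TA and heart from DBA/2-mdx mice was analysed in 15 libraries. The authors trimmed paired-end reads with Trim Galore 0.6.10, ran Salmon 1.10.3 on GRCm39 and used tximport for gene values, and they deposited these as TPM. The annotation release was not given in the sources used here. TPM keeps no depth, so precision comes only from the spread between mice, and the count test of the study was not run. Symbols and positions came from GENCODE M39, in which 56236 of 56980 identifiers were found.

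From the deposited TPM, log2(TPM + 0.5) was computed for genes that reached 0.5 TPM in 3 or more libraries of a fit and tested with limma 3.58.1 (lmFit, eBayes with trend) in R 4.3.3. The TA model held 1 surrogate variable, estimated in 5 rounds, the heart model held labelled sex, and the tissue comparisons and the difference between tissues came from 1 model of 4 group means with no covariate. Adjusted p-values are Benjamini-Hochberg values over all genes tested. Fold changes of genes with low TPM are understated on this scale. Exact permutation tests were 2-sided, over all splits of the mice. The code was tested on simulated data.

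The 10 genes and all lists were chosen with earlier results of these data known. From each other list, up to 4 genes that passed were named by smallest p, or up to 2 where none passed. Values for Myh3, Myog, Ache, Agrn and Scn4a in single mice or groups, and Tnnt3 in 1 heart, were named after they had been seen. For Nrg1, which has more than 1 identifier, the one with the highest mean was used. Alternatives were other pseudocounts (0.1 and 1), no filter, median-of-ratios scaling, other covariates, a replicate block and leaving out each mouse. The fit in males only was added after seeing the data. Some genes that the rule would name are not reported here. Replicate numbers were shared between groups but belonged to different animals.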

Additional observations from a re-analysis of the deposited data

Results flagged for a closer look

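In 4 of 29 groups of 4 mice, 1 mouse stood so far from the others that its gap passed Dixon's 95% critical value. Chance gives this in about 1 of 20 independent groups of normal values. The 29 groups are different genes in the same mice, some near 0 TPM in heart, so that rate is only a rough guide. For Chrne in TA, the highest D + Q mouse had 21.7 TPM (replicate 2) and the lowest vehicle mouse 10.9 TPM (replicate 4). In vehicle hearts the lowest value of Dok7 was 5.84 TPM (replicate 4), with the others at 6.66 to 6.74 TPM. The lowest value of Rapsn was 5.41 TPM (replicate 1), with the others at 6.25 to 6.30 TPM. None of the 10 genes passed the limma test of a difference in D + Q effect between the tissues.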

How the results depend on the processing

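The number of the 10 genes that passed was 0 in TA, 0 in heart and 0 for the difference between tissues under every alternative run, and 9 in both tissue comparisons, except that leaving out 1 mouse gave 9 to 10 with D + Q. Directions of the genes that did not pass were less firm. Median-of-ratios scaling turned Chrnb1 to 0.063 in TA, Dok7 to -0.007 for vehicle TA against heart and Lrp4 to 0.031 for the difference between tissues. Labelled sex in place of the surrogate variable turned Chrnb1 to 0.022, Chrne to -0.11, Chrng to 0.21, Rapsn to -0.03 and Ncam1 to 0.47 in TA. The fit in males only gave the same values, as it must with no female D + Q–treated TA mouse. A pseudocount of 1 turned Chrna1 to -0.043 and labelled sex turned Rapsn to -0.034 for the difference between tissues. The causes were not tested. Musk in TA ranged from 0.38 to 0.55 over all settings and from 0.35 to 0.57 without 1 mouse.

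Leaving out 1 mouse moved the TA log2 fold changes of Chrnb1 from -0.092 to 0.017, Chrne from -0.13 to 0.14, Chrng from -0.50 to 0.17, Rapsn from -0.04 to 0.22, Lrp4 from -0.30 to 0.16 and Ncam1 from -0.58 to 0.083. For the difference between tissues it moved Chrna1 from -0.038 to 0.045, Chrnd from -0.23 to 0.031, Chrng from -0.42 to 0.075, Rapsn from -0.18 to 0.11 and Lrp4 from -0.16 to 0.084. Of these, Chrna1, Chrnd and Chrng were near the floor in heart, so their ranges come mostly from TA. Deviations from the group means correlated at -0.30 to 0.04 between same-numbered mice in TA and -0.04 to 0.03 in heart. Between mice with different numbers they correlated at -0.22 to 0.39 in TA and -0.07 to 0.06 in heart. Same-numbered mice thus did not stand out as more alike, and a pairing by number was not tested further. With the replicate block Musk was 0.50 (limma unadjusted p = 0.0149) and 0 of the 10 genes passed in TA and heart.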

Other observations

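Acetylcholine also acts on receptors outside the muscle receptor. None of 11 other nicotinic subunit genes reached 0.5 TPM in any TA, and together they summed to at most 0.683 TPM there. Chrna2 was the 1 of the 11 tested, at 0.414 to 0.941 TPM in heart against at most 0.0335 TPM in TA. The muscarinic receptor gene Chrm2, the vagal receptor of the heart, was 30.8 to 36.2 TPM in vehicle hearts, 34.8 to 37.2 TPM in D + Q hearts and at most 0.0818 TPM in TA (log2 difference -5.93, limma adjusted p = 1.3e-15 with vehicle). Chrm3 had a log2 fold change of -0.61 between D + Q and vehicle hearts (limma unadjusted p = 0.0154, adjusted p = 0.176), in hearts that also differed in atrial transcripts, whose part was not tested. The neuregulin receptor Erbb4 was 2.98 to 5.49 TPM in heart and at most 0.156 TPM in TA.

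The genes whose log2(TPM + 0.5) followed Chrng most closely over the 8 TA libraries were Gm43490 (Pearson r = 0.957), Col12a1 (0.955), Dclk1 (0.921), Maged2 (0.914) and Gm48887 (0.913). Those closest to Chrne were Pip4p1 (0.977), Timm13 (0.973), Ccdc22 (0.971), Rilpl2 (0.969) and Tsen34 (0.969), and those closest to Chrna1 were Zrsr2 (0.970), Gm42672 (0.930), Pcdhga9 (0.920), Gm43259 (0.919) and Gm42576 (0.910). These are the highest of the correlations with all genes tested over 8 mice of 2 groups and are given as a description.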
